A study of Mus musculus with 9 samples.

Results

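Chemokines, interleukins and tumour necrosis factor (TNF) superfamily ligands are the signals with which tissues call in, activate and restrain immune cells. The genes described here were chosen by symbol alone, as numbered Ccl and Cxcl chemokines, interleukins, numbered Tnfsf ligands and colony-stimulating factors (Csf1 to Csf3), with Cx3cl1, Tnf, Lta, Ltb and Lif. Of 89 matching genes among the 50600 in the deposited count table, 60 had at least 1 count in a library and are the ligands of this report, and 29 had none. The 60 were 13 CC chemokines, 13 CXC chemokines, 1 CX3C chemokine, 16 interleukins, 13 TNF superfamily ligands and 4 genes of the group of Csf1, Csf2, Csf3 and Lif. The 29 without a count included Il1b, Il4, Il5, Il6, Il13, Il17a, Il22, Ccl3, Ccl11 and Tnfsf11, which other cells of the gut wall are known to make.

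Chemokines are small proteins that bind receptors coupled to G proteins and draw cells along a gradient. Interleukins signal mostly through receptors coupled to Janus kinases and STAT factors, while the interleukin-1 family and the TNF superfamily act through adaptors that switch on the transcription factor NF-kB. In the gut, epithelial cells themselves make several of these signals, among them Ccl25 and Ccl28, which guide lymphocytes into the mucosa, Ccl20, which draws cells to lymphoid follicles, and Il18 and Il33, which alert neighbouring immune cells to damage.

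The study compared 3 groups of 3 numbered RNA-sequencing libraries, all taken at 24 hr, and its design states 3 different mice for each condition. The 6 organoid libraries came from wild-type (WT) small intestine, labelled C57BL/6, of mice aged 2 to 5 months by the study's methods, which describe a mixed background. These organoids, cultures of epithelium in Matrigel, were kept in 50% organoid medium at double strength (with EGF, Noggin and R-spondin1) and 50% conditioned medium. The conditioned medium came from tumoroids (T-cM) or from WT organoids (WT-cM) and had been cleared of extracellular vesicles. The 3 tumoroid libraries came from intestinal tumours of Apc1638N/+ mice (strain labelled MIX) older than 6 months by the methods and were untreated, in a medium that by the methods lacked R-spondin1, although the growth protocol of the labels lists it. Tumoroids therefore differed from the organoids in genotype, tissue of origin, strain label, age and medium, and these cannot be told apart. For the organoid libraries the title and the treatment field name opposite media. The names T-cM-titled and WT-cM-titled used here follow the titles, and any direction between them turns round if the treatment field is right, whereas the comparison of tumoroids with the mean of both organoid groups is the same under either label.

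Gene counts summed to between 16541635 and 25170966 per library. CPM, the counts scaled to a common library size after TMM normalisation, are used below to compare 1 gene between libraries. TPM, which the authors scaled by gene length, are used to compare genes with each other. A count of 3, taken as the floor, corresponded to 0.103 to 0.204 CPM, and floors and intervals cover counting error alone, as reads were not collapsed to molecules. All 10 epithelial markers were high in every library, with summed levels of 15574 to 20542 TPM, of which Krt18 was higher and Vil1, Krt19 and Cdx1 were lower in tumoroids. Of 24 immune cell markers, 6 passed the filter on low values and Laptm5, Cd68, Csf1r and S100a8 were higher in tumoroids, and the summed level was 5.04 to 6.53 TPM in organoids and 23.2, 37.3 and 73.9 TPM in tumoroid libraries 1 to 3. The defining markers Cd3e, Cd8a and Tyrobp had no count in any library, and Ptprc, which encodes CD45, had 0 to 16 counts in organoids and 4, 19 and 6 in tumoroids. The 6 muscle markers summed to 0.2 to 1.31 TPM in organoids and 7.77, 4.37 and 92.7 TPM in tumoroid libraries 1 to 3. The 8 endothelial markers summed to 0.5 to 0.83 TPM and to 1.07, 0.72 and 3.84 TPM, and 6 of them had a count in each tumoroid library. Of 1 muscle and 2 endothelial markers tested, 1 of each list was called higher in tumoroids. Among tumoroids, library 3 stood apart for Acta2 (1340 counts, against 89 and 50 in the others) and Cdh5 (54 counts, against 1 and 1). Myh11, Des and Cnn1 of muscle had at most 4 counts in any library and Kdr and Emcn of endothelium had none. The 14 fibroblast markers summed to 1.07 to 3.68 TPM over the 9 libraries, with Col3a1 and Lum at 0. In bulk RNA a change in the share of cells that express a gene and a change per cell cannot be told apart, and the part of these markers in the results below was not tested.

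Normal organoids expressed a short list of ligands at high level, led by Ccl25, and the tumoroids held a different mixture. Summed over the 60 ligands, transcript levels were 503 to 722 TPM in the 6 organoid libraries and 475, 532 and 812 TPM in tumoroids, so the totals overlapped. Ccl25, the ligand that recruits lymphocytes bearing Ccr9 to the small intestine, made up 35.9% to 39.9% of this sum in organoids, and 8.33%, 8.07% and 1.55% in tumoroid libraries 1 to 3. The next highest ligands in organoids were Il18 (119 ± 31.7 TPM, SD, n = 6), Ccl6 (76.9 ± 29.5), Cx3cl1 (62.1 ± 11.3) and Cxcl16 (45.3 ± 15.3), each by its mean TPM. Cxcl16, a membrane-bound chemokine whose receptor is Cxcr6, took the largest share among ligands in tumoroid libraries 2 and 3 (25.8% and 22.2%), and Ccl6 took the largest in library 1 (22.4%). By class, CC chemokines summed to 286 to 411 TPM in organoids and 142 to 216 TPM in tumoroids. CXC chemokines summed to 25.0 to 65.8 TPM in organoids and 93.6 to 218 TPM in tumoroids, and TNF superfamily ligands to 19.4 to 33.7 and 62.0 to 86.3 TPM, with no overlap between organoids and tumoroids in any of these 3 classes. The group of Csf1 to Csf3 and Lif did not overlap either (5.77 to 10.9 and 17.7 to 54.5 TPM). Interleukins (90.15 to 172 and 60.5 to 183 TPM) and the CX3C chemokine (48.35 to 73.99 and 25.86 to 54.87 TPM) overlapped.

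**Figure D1:**
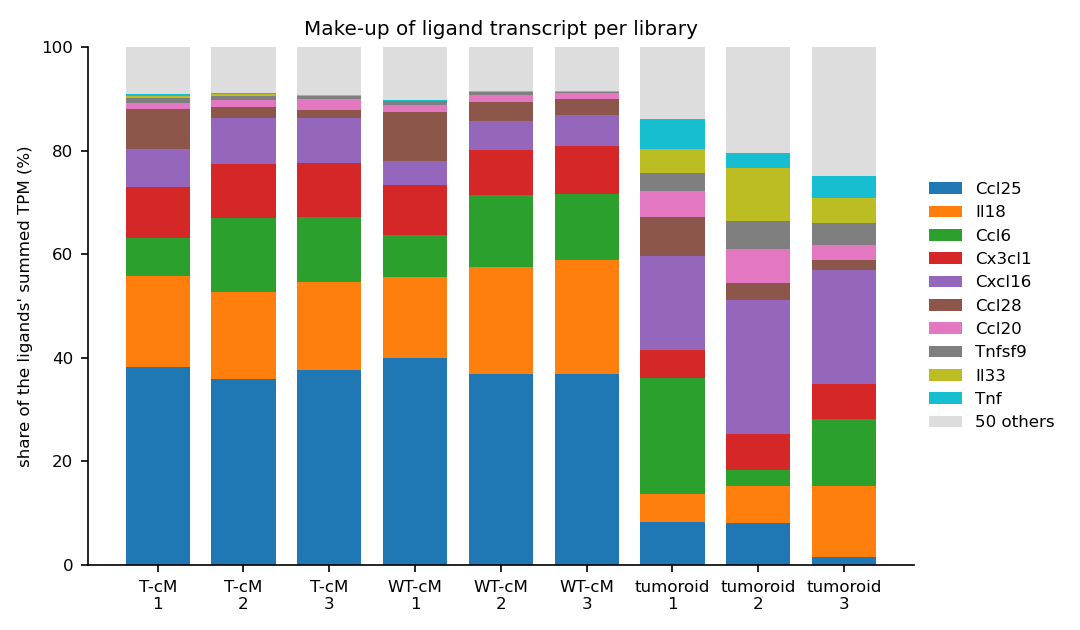
Share of each ligand in the summed TPM of the 60 ligands (vertical axis, percent) for the 9 libraries (horizontal axis), with 10 named ligands in colours and the other 50 in grey. Ccl25 filled 35.9% to 39.9% of each organoid bar and at most 8.33% of a tumoroid bar, and Cxcl16, Il33, Tnf, Tnfsf9 and Ccl20 filled more of the tumoroid bars.

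Testing was limited to genes that reached a TPM of 1 in any library, which kept 37 of the 60 ligands. The filter passed Cxcl11, whose highest level was 1.31 TPM, and left out Ltb, whose highest level was 0.89 TPM. The 23 ligands left out had low counts throughout, of which the most were for Il7 (at most 36 counts in a library) and Tnfsf13b (at most 23). A gene was called at an adjusted p under 0.05 in edgeR's quasi-likelihood test, adjusted over all 16208 genes tested, with an absolute log2 fold change above 1. Because a ligand with low levels could pass the filter only through the group where it was high, the shares called among the 37 describe these genes and test nothing.

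Between the organoid groups, few ligands differed. Tnfsf15 and Il33 were called higher in T-cM-titled organoids and no ligand was called lower by edgeR, DESeq2 or limma (4 were higher and 4 lower at an unadjusted p under 0.05 in edgeR), where 0.673% and 0.432% of all genes tested were called higher and lower. By adjusted p alone, without the fold threshold, Cxcl16 was also higher and Ccl28, Tnfsf10 and Tnfsf13 were lower, so 3 of 37 lay on each side, against 5.03% of all genes higher and 5.05% lower. The median log2 fold change was 0.05 over the 37 ligands and 0 over all genes.

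Tnfsf15 encodes TL1A, a TNF superfamily ligand whose receptor is Tnfrsf25 (DR3), a costimulator of lymphocytes. Its level was 2.49, 16.1 and 15.4 CPM in T-cM-titled libraries 1 to 3 and 0.879, 1.82 and 2.21 CPM in WT-cM-titled libraries 1 to 3. All 3 T-cM-titled libraries lay above all WT-cM-titled ones, with the first pair much closer together than the others. The fold change was 6.52 (log2 2.71 ± 0.22 SE, adjusted p 7.6e-10). Tumoroids spread over both sides of the organoids for this gene, with 0.770, 16.6 and 0.137 CPM, and the tumoroid comparison gave log2 0.44 ± 1.08 SE, adjusted p 0.77. Tnfrsf25 had 1 to 6 counts in each organoid library and 22, 46 and 32 counts in tumoroids.

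Il33, an alarmin of the interleukin-1 family that is held in the nucleus and released from damaged cells, was the other ligand called. It measured 2.75, 3.05 and 2.09 CPM in T-cM-titled and 0.605, 1.28 and 1.28 CPM in WT-cM-titled libraries without overlap (log2 1.32 ± 0.29 SE, adjusted p 0.0029). Tumoroids were far above both organoid groups, at 19.5, 42.3 and 31.2 CPM (log2 4.21 ± 0.30 SE, adjusted p 5.4e-06). Between the organoid groups Il33 was not called by limma voom or DESeq2, with adjusted p of 0.061 and 0.062. Its receptor gene Il1rl1 (ST2) had at most 7 counts in any organoid library and 0, 3 and 66 counts in tumoroids, the last in library 3.

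The 4 ligands past the adjusted p alone had smaller fold changes. Cxcl16 measured 43.9, 78.7 and 77.9 CPM in T-cM-titled and 26.9, 51.4 and 58.6 CPM in WT-cM-titled libraries, so the groups overlapped, but each T-cM-titled library was above its own pair (log2 0.58 ± 0.09 SE, adjusted p 5.2e-05). Ccl28, which guides antibody-secreting cells bearing Ccr10 to mucosae, measured 55.5, 20.97 and 17.02 CPM and 68.6, 41.3 and 35.3 CPM, again overlapping between groups and lower in each pair (log2 -0.74 ± 0.11 SE, adjusted p 4.9e-05). Pair 1 was the highest for Ccl28 in both groups and differed least within the pair. Tnfsf10 (TRAIL, a ligand of death receptors) measured 14.8, 25.0 and 31.5 CPM against 18.7, 46.6 and 44.2 CPM, with log2 -0.57 ± 0.11 SE, adjusted p 7.0e-04. Tnfsf13 (APRIL, a survival factor for plasma cells) measured 2.43, 1.70 and 1.47 CPM against 2.91, 3.77 and 4.16 CPM, without overlap (log2 -0.94 ± 0.25 SE, adjusted p 0.012). Tnfsf13 lies within the readthrough gene Tnfsfm13 on the same strand, and how reads of the shared exons were assigned is not given in the sources used here.

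These organoid calls leaned on the pairing, on pair 2 and on the tool. By limma on TPM none of the 6 had an adjusted p under 0.05 (0.276 to 0.292), and no gene of all tested was called. Il33 and Tnfsf13 also missed it by limma voom and DESeq2. With replicate pair 2 left out, none of the 6 passed, with adjusted p of 0.165 for Tnfsf15, 0.407 for Il33, 0.279 for Cxcl16, 0.361 for Ccl28, 0.376 for Tnfsf10 and 0.493 for Tnfsf13, and 1 gene of all tested was called. Without pair 1, Tnfsf13 and Ccl28 also passed the fold threshold on the lower side (log2 fold changes of -1.33 and -1.00), and Il33 was not called because its log2 fold change was 0.98. Tnfsf13 did not pass without pair 3 (log2 fold change -0.67, adjusted p 0.34), nor by limma voom or DESeq2 (adjusted p 0.083 and 0.14). Without the replicate block edgeR called no gene of all tested, and 2 ligands were higher and 1 lower at an unadjusted p under 0.05.

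**Figure D2:**
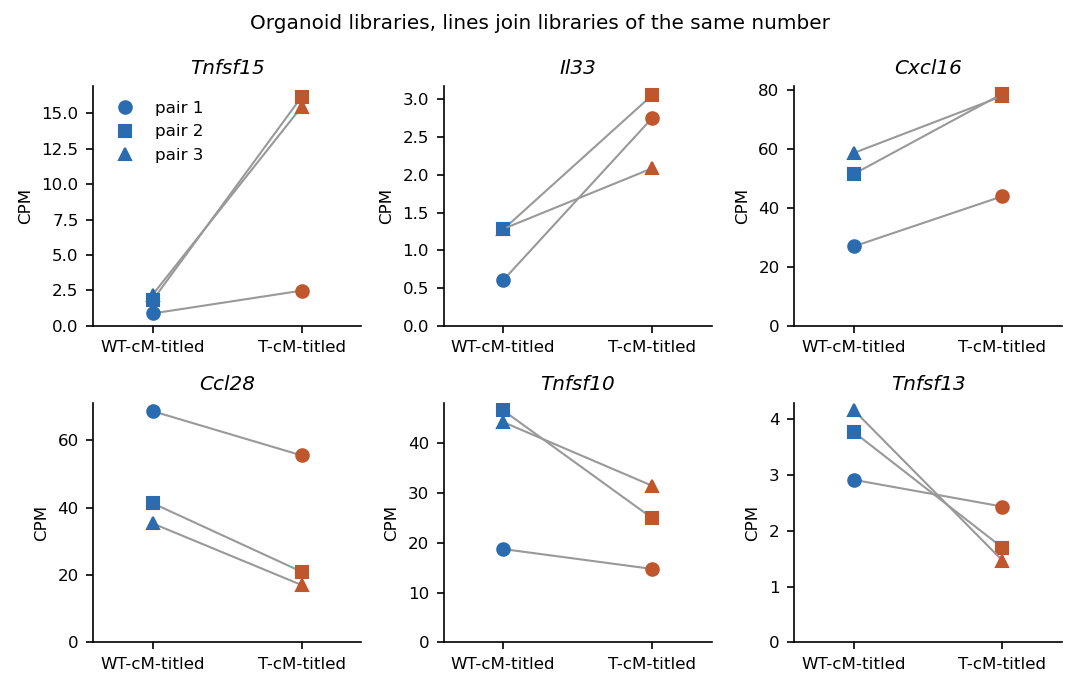
CPM (vertical axes, each starting at 0) of the 6 ligands with an adjusted p under 0.05 between the organoid groups, with lines joining the WT-cM-titled and T-cM-titled library of the same number. Tnfsf15, Il33 and Cxcl16 were higher and Ccl28, Tnfsf10 and Tnfsf13 lower in the T-cM-titled library of all 3 pairs.

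Tumoroids differed from organoids in most of the ligands tested. Of the 37, 19 were called higher and 6 lower, and 12 were not called, where 21% of all genes were called higher and 12.1% lower. The median log2 fold change was 1.00 over the 37 ligands and 0.16 over all genes tested. In CPM, all 3 tumoroid libraries lay above all 6 organoid libraries for 15 of the 37, and below them for 5, where 25.6% of all genes tested lay wholly above and 20.2% wholly below. Without tumoroid library 3, 15 ligands were called higher and 8 lower.

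Among the CC chemokines, 5 were called higher, 2 lower and 3 were not called, out of 10 tested. Ccl2, Ccl7 and Ccl8, which attract monocytes through Ccr2 and related receptors, were at or near 0 in organoids. Ccl2 had 1 count over the 6 organoid libraries and 17, 67 and 242 counts in tumoroid libraries 1 to 3. Its pooled ratio in CPM was 454 (95% counting interval 80.8 to 17968; fitted log2 8.36 ± 1.09 SE, adjusted p 4.6e-04), and the fitted log2 fold change was 7.06 without tumoroid library 3 and 9.31 without WT-cM-titled library 3, which held the 1 organoid count. Ccl7 had no count in organoids and 3, 93 and 60 counts in tumoroids, at least 72.3-fold higher against a floor of 3 counts over the 6 organoid libraries. Its adjusted p was 0.0051, and its fitted log2 fold change of 8.30 became 7.48 without tumoroid library 2. Ccl8 had no count in organoids and 0, 11 and 26 in tumoroids, at least 17.2-fold higher (adjusted p 0.026). The groups met at 0 for Ccl8, and its adjusted p was 0.052 without tumoroid library 2. Without library 3 the bound fell to 8.13-fold, the fitted log2 fold change from 6.21 to 5.11, and the adjusted p was 0.071. Ccr2 itself had no count in organoids and 1, 0 and 7 counts in tumoroids.

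Ccl5, a T cell attractant, depended on 1 library. It had 0, 2, 0, 0, 0 and 1 counts in the organoid libraries and 0, 3 and 67 in tumoroids (pooled ratio 32.5, interval 10.7 to 161; fitted log2 4.65 ± 1.44 SE, adjusted p 0.022), and without tumoroid library 3 the fitted log2 fold change was 0.99 with an adjusted p of 0.60. The fitted value was 6.15 without T-cM-titled library 2 and 5.61 without WT-cM-titled library 3 (adjusted p 0.033 and 0.050), and 4.46 without WT-cM-titled library 2 (adjusted p 0.052). Ccl20, whose receptor Ccr6 is carried by cells of lymphoid follicles, measured 3.49, 5.90 and 9.24, 3.68, 5.65 and 5.49 and 10.4, 13.2 and 9.72 CPM in T-cM-titled, WT-cM-titled and tumoroid libraries. The lowest tumoroid was just above the highest organoid library, with log2 1.00 ± 0.30 SE, adjusted p 0.018, and the adjusted p was 0.070 without tumoroid library 2 and 0.082 against T-cM-titled organoids alone. The fold change lay at the threshold, and was log2 0.84 at the lowest over the alternatives. Among others, it fell below the threshold without T-cM-titled library 1 or 2 or WT-cM-titled library 1 and by DESeq2 (log2 0.86, 0.99, 0.90 and 0.94).

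On the lower side, Ccl25 measured 555, 774 and 830 CPM in T-cM-titled, 572, 825 and 867 CPM in WT-cM-titled and 90.0, 85.7 and 26.2 CPM in tumoroid libraries. Every tumoroid library was several-fold below every organoid library, 11.0-fold overall (log2 -3.45 ± 0.42 SE, adjusted p 1.2e-04). The gene for its receptor, Ccr9, had 4 to 13 counts in each organoid library and 1, 0 and 0 in tumoroids, too few for the test. Ccl9, a chemokine that acts through Ccr1, measured 13.4, 17.4 and 14.4, 18.2, 10.2 and 9.52 and 1.22, 0.0372 and 4.19 CPM, without overlap (log2 -2.91 ± 0.85 SE, adjusted p 0.017). Its fitted log2 fold change was -4.52 without tumoroid library 3, and its adjusted p was 0.061 without tumoroid library 1. Its neighbour Ccl6 spread widely in tumoroids, at 58.4, 7.92 and 52.2 CPM, and was not called (log2 -0.53 ± 0.59 SE, adjusted p 0.48), and neither were Ccl28 (log2 -0.68 ± 0.46 SE, adjusted p 0.25) and Ccl27a.

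**Figure D3:**
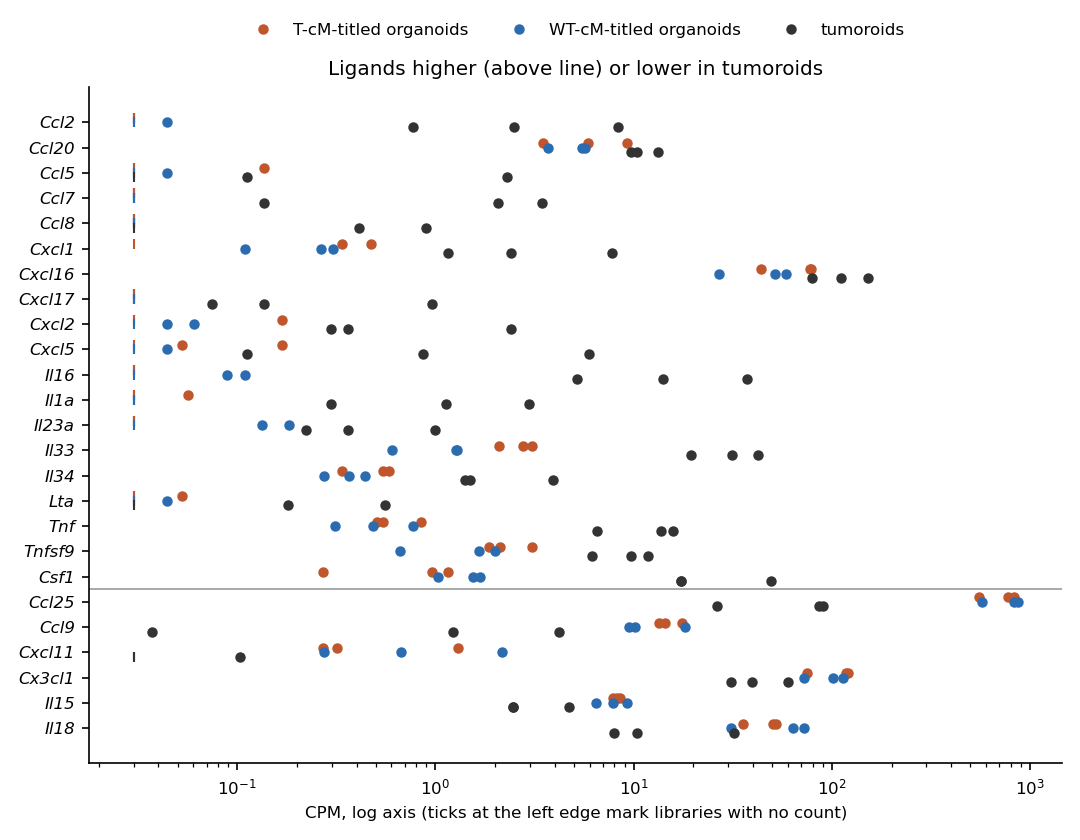
CPM (horizontal axis, log scale) of the 19 ligands called higher (above the line) and 6 called lower in tumoroids, with 1 point per library, T-cM-titled organoids in orange, WT-cM-titled organoids in blue and tumoroids in black, and ticks at the left edge for libraries with no count. Black points lay to the right of all coloured points for 15 of the 19 genes above the line and to the left for 5 of the 6 below it, Il18 being the exception.

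Of 8 CXC chemokines tested, 5 were called higher, 1 lower and 2 were not called. Cxcl1, Cxcl2 and Cxcl5 are neutrophil attractants that act through Cxcr2. Cxcl1 measured 0, 0.475 and 0.338, 0.110, 0.304 and 0.266 and 2.40, 1.15 and 7.80 CPM in T-cM-titled, WT-cM-titled and tumoroid libraries, with every tumoroid above every organoid (log2 3.92 ± 0.77 SE, adjusted p 0.0022). Cxcl2 had 5 counts over the organoid libraries and 8, 8 and 70 in tumoroids (pooled ratio 23.9, interval 9.87 to 75.6; fitted log2 4.34 ± 1.01 SE, adjusted p 0.0053). Cxcl5 had 5 counts over the organoid libraries and 19, 3 and 174 in tumoroids (pooled ratio 54.5, interval 23.0 to 170; fitted log2 5.74 ± 1.18 SE, adjusted p 0.0028), and 1 tumoroid library lay within the organoid range. All 3 leaned on tumoroid library 3: without it the log2 fold changes were 2.81, 2.69 and 3.43 for Cxcl1, Cxcl2 and Cxcl5 and still had adjusted p of 0.0091, 0.039 and 0.021. Without T-cM-titled library 3 the values for Cxcl2 and Cxcl5 were 6.06 and 6.36, and without WT-cM-titled library 3 that for Cxcl5 was 6.70.

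Cxcl16 was the most abundant ligand of the class and rose on a high background, with 79.2, 111 and 152 CPM in tumoroids against 26.9 to 78.7 CPM in organoids (log2 1.05 ± 0.29 SE, adjusted p 0.012). The lowest tumoroid library was barely above the highest organoid library, and the adjusted p was 0.062 without tumoroid library 3 and 0.094 against T-cM-titled organoids alone. The log2 fold change fell below the threshold without T-cM-titled or WT-cM-titled library 1 and by DESeq2 (0.93, 0.90 and 0.98). Cxcl16 overlaps Zmynd15 on the opposite strand, and the strand setting of the counting is not given in the sources used here. The same holds for Ccl25 with Elavl1, Il18 with Bco2 and Tex12, and Il16 with Stard5. It also holds for Ccl2 with Gm17268, Ccl27a with Il11ra1, and Cxcl10 and Cxcl11 with Art3. Cxcl17, a chemokine of mucosal surfaces, had no count in organoids and 3, 2 and 28 in tumoroids, at least 15.3-fold higher (adjusted p 0.020), and at least 3.70-fold without tumoroid library 3, where the adjusted p was 0.057 and the fitted log2 fold change fell from 6.06 to 4.10. Cxcl11, annotated as a polymorphic pseudogene, a gene that is intact in some mouse strains only, went the other way, and the strain labels of organoids and tumoroids differ. Its transcript measured 0.317, 0.271 and 1.30, 0.275, 0.669 and 2.17 and 0, 0 and 0.103 CPM (log2 -4.24 ± 1.18 SE, adjusted p 0.013, and -7.03 without tumoroid library 3). Cxcl10 (log2 0.62 ± 0.67 SE, adjusted p 0.47) and Cxcl13 (log2 -1.22 ± 0.59 SE, adjusted p 0.11) were not called. Receptor genes for these ligands were close to absent, with no count of Cxcr3 in any library and at most 1 count of Cxcr2 and of Cxcr6 per library.

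Many of these chemokine genes lie side by side. With gaps of up to 1000 kb, 7 groups of at least 2 neighbours were found, of which 4 had at least 2 genes tested. In 2 of these 4 the tested genes were all called higher, and in the other 2 the calls were mixed, where 21% of all genes tested were called higher and 12.1% lower. The tested genes of the 2 groups called higher were below 1 TPM in every organoid library and passed the filter through the tumoroids alone. They could hardly be called lower, so these counts by group test nothing. The other 3 groups had at most 1 gene tested, among them that of Cx3cl1 on chromosome 8, which was called lower. On chromosome 11 of the mm10 build, Ccl2, Ccl7, Ccl11, Ccl12, Ccl8 and Ccl1 span 141 kb, and 3 of these 6 were called higher while the other 3 had no count in any library. In a second group on the same chromosome, within 137 kb, Ccl5 was called higher, Ccl9 lower, Ccl6 was not called, Ccl4 was not tested (1 count) and Ccl3 had no count. On chromosome 5, Cxcl5, Cxcl1 and Cxcl2 were called higher within 145 kb, and Cxcl3 and Cxcl15, which lie between Cxcl5 and Cxcl1, had only 11 counts and 1 count, all in tumoroid library 3. Farther along chromosome 5, Cxcl11 was called lower, Cxcl10 was not called and Cxcl9 was not tested.

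**Figure D4:**
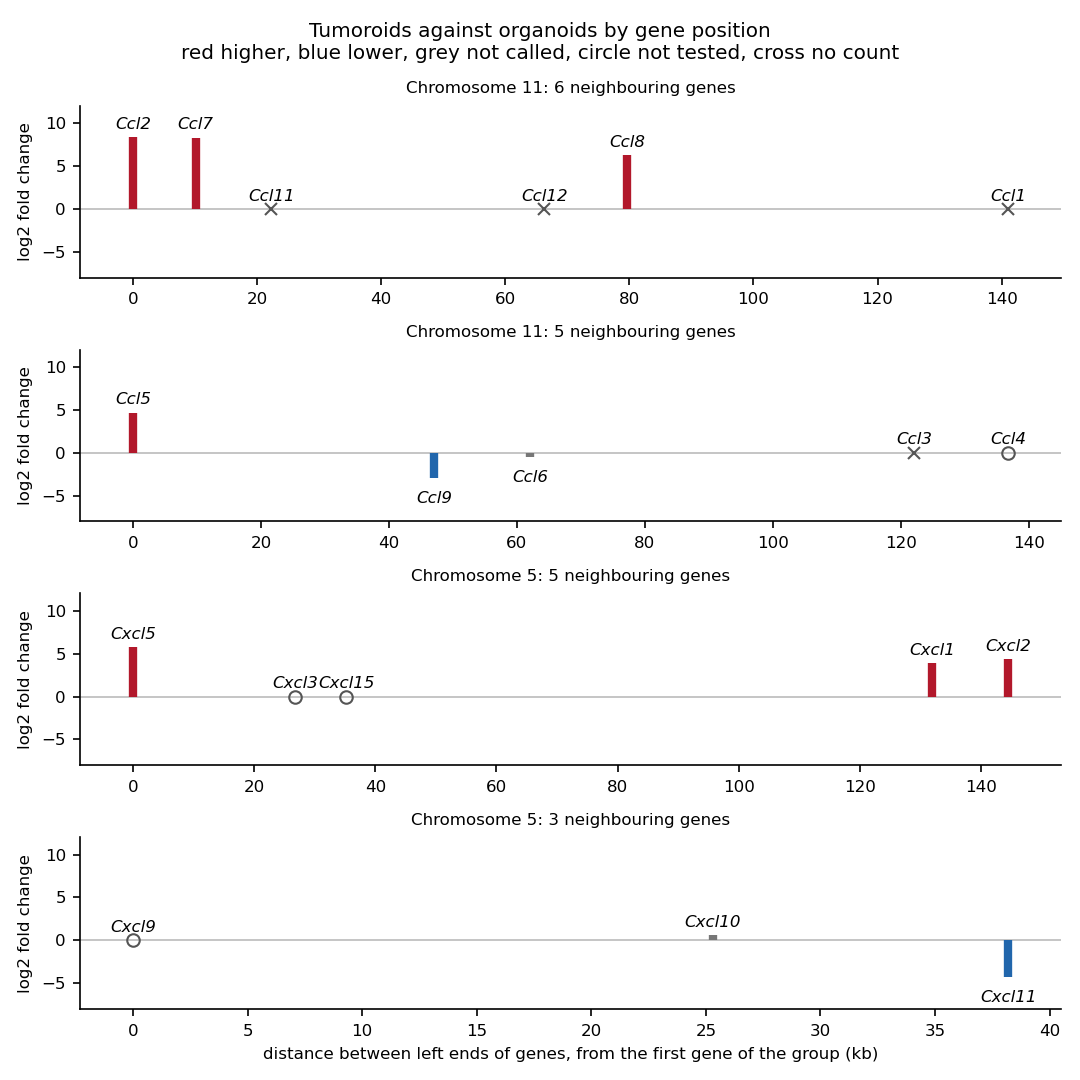
Fitted log2 fold change, tumoroids against organoids (vertical axes), of neighbouring chemokine genes by distance along the chromosome in kb (horizontal axes), for the 4 groups with at least 2 genes tested and gaps of up to 1000 kb. Red bars were called higher, blue lower and grey neither, circles were not tested and crosses had no count, and values of Ccl2, Ccl7, Ccl8, Ccl5, Cxcl2 and Cxcl5 rest on at most 5 organoid counts and so on the prior count of the fit.

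The promoters of some of these genes hold the consensus sequence of NF-kB, the factor named above. RefSeq promoter sequences (GRCm38.p6, the same build) were matched by symbol for 41 of the 60 ligands, and the 250 bases before the start of transcription were searched on both strands for the NF-kB consensus. A match was present in 7.25% of the 32851 promoters of all genes. Counted by symbol, where a match in any listed promoter counts, it was present in 8.23% of 27025 symbols and in 11 of the 41 ligands, namely Ccl9, Ccl20, Csf1, Cxcl1, Cxcl2, Cxcl3, Cxcl10, Il16, Il19, Lif and Ltb. By tumoroid call, 5 of the 10 higher ligands with a sequence held one (Ccl20, Csf1, Cxcl1, Cxcl2 and Il16) and 1 of the 4 lower ones (Ccl9). A match describes the letters only and is not shown to be a binding site. The AP-1 motif TGANTCA was present in 6.75% of all promoters, in 7.82% of symbols and in 10 of the 41 ligands, and the TATA motif TATAAA, searched on the gene's own strand, in 7.59% of promoters, in 8.94% of symbols and in 16 of the 41. These 3 motifs were searched in all 32851 promoters, and related chemokine genes share ancestry, so their matches are not independent of each other. The promoters of the 6 called ligands with an NF-kB consensus match are shown because these genes moved in tumoroids, with the match in capitals. In Cxcl1, Cxcl2 and Il16 the capitals cover a match on each strand, offset by 1 base.
Cxcl1, chr5:90890995-90891244, plus strand: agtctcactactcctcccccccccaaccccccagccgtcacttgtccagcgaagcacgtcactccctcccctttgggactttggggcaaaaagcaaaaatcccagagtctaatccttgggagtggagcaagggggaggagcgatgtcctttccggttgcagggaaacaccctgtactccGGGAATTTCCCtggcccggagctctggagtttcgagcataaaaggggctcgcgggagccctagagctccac
Cxcl2, chr5:90903649-90903898, plus strand: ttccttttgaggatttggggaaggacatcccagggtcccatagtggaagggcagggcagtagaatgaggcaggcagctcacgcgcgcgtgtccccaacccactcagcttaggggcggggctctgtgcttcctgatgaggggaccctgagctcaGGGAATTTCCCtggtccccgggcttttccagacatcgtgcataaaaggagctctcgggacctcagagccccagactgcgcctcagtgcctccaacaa
Ccl20, chr1:83116516-83116765, plus strand: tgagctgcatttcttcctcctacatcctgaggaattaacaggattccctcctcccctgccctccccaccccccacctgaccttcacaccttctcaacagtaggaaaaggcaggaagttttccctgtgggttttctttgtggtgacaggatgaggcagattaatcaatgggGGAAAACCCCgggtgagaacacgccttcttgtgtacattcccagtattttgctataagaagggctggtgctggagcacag
Csf1, chr3:107760470-107760719, minus strand: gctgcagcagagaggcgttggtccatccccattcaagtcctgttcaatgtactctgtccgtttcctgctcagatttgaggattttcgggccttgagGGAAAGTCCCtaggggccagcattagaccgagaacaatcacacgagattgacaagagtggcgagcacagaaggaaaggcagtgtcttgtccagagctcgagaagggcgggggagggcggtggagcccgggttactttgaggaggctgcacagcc
Il16, 1 of 3 listed promoters, chr7:83655496-83655745, minus strand: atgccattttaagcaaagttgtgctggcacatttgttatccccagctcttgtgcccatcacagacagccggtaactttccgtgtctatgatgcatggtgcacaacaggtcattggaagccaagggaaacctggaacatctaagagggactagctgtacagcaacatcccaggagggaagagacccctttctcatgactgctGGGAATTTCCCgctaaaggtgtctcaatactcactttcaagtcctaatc
Ccl9, chr11:83578637-83578886, minus strand: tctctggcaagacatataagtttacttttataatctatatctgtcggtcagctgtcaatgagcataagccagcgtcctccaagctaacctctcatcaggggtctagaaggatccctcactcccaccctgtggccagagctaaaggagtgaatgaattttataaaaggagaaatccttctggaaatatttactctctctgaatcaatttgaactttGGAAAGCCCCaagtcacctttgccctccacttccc

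The capitals of Cxcl1 and Cxcl2 read the same, GGGAATTTCCC, and so do those of Il16. The Il16 promoter shown starts 90.2 kb inside the annotated gene, and which of its starts these cells used was not tested. The match began 71 bases before the start in Cxcl1, 97 in Cxcl2, 49 in Il16, 80 in Ccl20, 154 in Csf1 and 35 in Ccl9. Il33 and Tnfsf15, the ligands called between organoid groups, had no match in their windows, and neither did Tnf, which was called higher in tumoroids. Of these 3, Il33 and Tnf held the TATA motif.

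The CX3C chemokine Cx3cl1 (fractalkine, a chemokine that is made as a membrane-anchored stalk) was lower in tumoroids. It measured 75.1, 118 and 121, 72.4, 101 and 113 and 31.0, 39.7 and 60.2 CPM in T-cM-titled, WT-cM-titled and tumoroid libraries, and in CPM all tumoroids lay below all organoids (log2 -1.20 ± 0.26 SE, adjusted p 0.0034). In TPM, tumoroid library 3 (54.87) lay within the organoid range (48.35 to 73.99), and limma on TPM gave log2 -0.68, short of the fold threshold. Cx3cr1, the receptor gene of Cx3cl1, had at most 3 counts in any library.

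Of 9 interleukins tested, 5 were called higher, 2 lower and 2 were not called. Il33, given above, was 18.5-fold higher. Il16, a ligand of CD4 cut from a larger precursor, had 4 counts over the organoid libraries, all in WT-cM-titled libraries 1 and 3, and 114, 1003 and 409 counts in tumoroids. The pooled ratio was 531 (interval 207 to 1950) and the fitted value log2 9.79 ± 0.91 SE, adjusted p 8.2e-05, or 8.78 without tumoroid library 2. Il1a, an interleukin-1 that acts through Il1r1, had 1 count over the organoid libraries and 25, 8 and 86 counts in tumoroids (pooled ratio 166, interval 29.1 to 6593; fitted log2 6.89 ± 1.09 SE, adjusted p 0.0013), with a fitted value of 5.79 without tumoroid library 3 and 7.96 without T-cM-titled library 3. Il34, which shares the receptor Csf1r with Csf1, measured 0.582, 0.543 and 0.338, 0.275, 0.365 and 0.443 and 1.50, 1.41 and 3.92 CPM, without overlap (log2 2.42 ± 0.43 SE, adjusted p 0.0012, and 1.76 without tumoroid library 3). Il23a, the subunit that forms interleukin-23 with the product of Il12b, had 6 counts over the organoid libraries and 8, 6 and 29 in tumoroids (pooled ratio 9.97, interval 4.23 to 28.7; fitted log2 4.38 ± 1.05 SE, adjusted p 0.0096, and 3.47 without tumoroid library 3). Against WT-cM-titled organoids alone its adjusted p was 0.11 at a log2 fold change of 2.28, while Il12b had no count in any library.

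The 2 interleukins that were lower were among those that organoids expressed most. Il18, whose precursor is cut by caspase-1, measured 35.5, 50.2 and 52.4, 30.9, 63.7 and 71.9 and 7.98, 10.4 and 32.2 CPM, and tumoroid library 3 reached the lowest organoid library (log2 -1.58 ± 0.46 SE, adjusted p 0.018). Without tumoroid library 3 the log2 fold change was -2.47, and without tumoroid library 1 or 2 the adjusted p was 0.058 or 0.061. Il15, which sustains intraepithelial lymphocytes and is presented on Il15ra, measured 8.20, 8.55 and 7.83, 6.43, 7.84 and 9.21 and 2.45, 2.45 and 4.74 CPM, with all tumoroids below all organoids in CPM (log2 -1.31 ± 0.28 SE, adjusted p 0.0036). In TPM, tumoroid library 3 (7.5) lay just above WT-cM-titled library 1 (7.47), and limma on TPM gave log2 -0.73, short of the fold threshold. Il11 (log2 0.61 ± 0.42 SE, adjusted p 0.26) and Il17d (log2 -0.13 ± 0.58 SE, adjusted p 0.88) were not called.

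TNF superfamily ligands were called higher in 3 of 6 tested, and none was called lower by edgeR, although 1 had an unadjusted p under 0.05 on the lower side and DESeq2 called 2 lower. Tnfsf10 and Tnfsf13 were the ligands nearest to a lower call in edgeR, with adjusted p of 0.092 and 0.075. Tnf itself measured 0.846, 0.543 and 0.507 CPM in T-cM-titled, 0.769, 0.486 and 0.310 CPM in WT-cM-titled and 13.8, 6.51 and 15.8 CPM in tumoroid libraries. The lowest tumoroid was far above the highest organoid library, 20.8-fold overall (log2 4.38 ± 0.37 SE, adjusted p 1.5e-05). Tnfsf9 (4-1BB ligand, a costimulator of T cells through Tnfrsf9) measured 2.12, 3.05 and 1.86, 1.65, 2.01 and 0.664 and 6.16, 9.67 and 11.8 CPM, again without overlap (log2 2.33 ± 0.36 SE, adjusted p 4.8e-04). Lta (lymphotoxin alpha) rested on few reads, with 2 counts over the organoid libraries and 4, 15 and 0 in tumoroids (pooled ratio 13.2, interval 3.19 to 117; fitted log2 3.38 ± 1.23 SE, adjusted p 0.043). Leaving out any single library other than tumoroid library 3 raised its adjusted p above 0.05, to 0.31 at a log2 fold change of 1.86 without tumoroid library 2, and the value was 4.43 without T-cM-titled library 1 and 4.34 without WT-cM-titled library 3.

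Csf1, the growth factor of macrophages, measured 1.16, 0.271 and 0.958, 1.54, 1.03 and 1.68 and 17.3, 17.4 and 49.2 CPM. All tumoroids were far above the highest organoid library, 25.8-fold overall (log2 4.69 ± 0.44 SE, adjusted p 2.6e-05, and 3.99 without tumoroid library 3). Csf1r, the receptor it shares with Il34, had 3 to 62 counts in organoid libraries and 60, 550 and 131 in tumoroids, overlapping between groups (log2 2.66 ± 0.78 SE, adjusted p 0.017). Lif, a cytokine of the interleukin-6 family, was not called at log2 0.77 ± 0.37 SE, adjusted p 0.11, and Csf2 was not called at log2 -1.41 ± 0.74 SE, adjusted p 0.14.

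The receptors, antagonists and signalling genes of these pathways were counted in lists written with earlier results of these data known. Their shares stand beside 21% called higher and 12.1% lower over all genes tested in tumoroids and, as for the ligands, a gene with low levels could pass the filter only through the group where it was high, so the shares test nothing. Receptors of the interleukin-6 and interleukin-1 families were among those that rose. Of 42 receptors of interleukins and colony-stimulating factors, 27 were tested, of which 11 (40.7%) were called higher and 4 (14.8%) lower in tumoroids, with a median log2 fold change of 0.79. Lifr, the receptor of Lif, had 0 to 3 counts in each organoid library and 318, 1287 and 714 in tumoroids (log2 8.70 ± 0.59 SE, adjusted p 4.5e-06, 9.33 without WT-cM-titled library 1 and 8.11 without tumoroid library 2). Il17re measured 0.529, 0.407 and 0.676, 0.934, 0.365 and 1.06 and 31.4, 34.2 and 34.7 CPM (log2 5.65 ± 0.28 SE, adjusted p 1.1e-06). Il1r1, the receptor of Il1a, had 0 to 5 counts in organoids and 116, 87 and 537 in tumoroids (log2 7.00 ± 0.79 SE, adjusted p 7.7e-05, 5.90 without tumoroid library 3 and 7.86 without T-cM-titled library 1). Il6ra rose from 0.23 to 0.64 CPM in organoids to 2.95, 10.9 and 9.14 CPM (log2 4.04 ± 0.44 SE, adjusted p 6.2e-05). Among the 4 lower was Il17rc (log2 -1.51 ± 0.13 SE, adjusted p 1.7e-05), and the others were Il22ra1, Il10rb and Il20rb.

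Between organoid groups, 1 receptor of this list was called. Il18rap, the accessory chain of the interleukin-18 receptor, measured 0.635, 3.19 and 3.38 CPM in T-cM-titled and 0.165, 0.365 and 0.354 CPM in WT-cM-titled libraries, without overlap (log2 2.99 ± 0.39 SE, adjusted p 4.8e-06), and tumoroids were higher still at 3.81, 25.9 and 14.05 CPM. Il22ra1, the receptor chain for interleukin-22, passed the adjusted p alone, at 83.5, 133 and 136 against 62.5, 71.7 and 81.6 CPM (log2 0.70 ± 0.09 SE, adjusted p 4.1e-06). Neither passed without replicate pair 2 (adjusted p 0.21 and 0.24), and DESeq2 gave Il18rap no adjusted p.

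Of 23 chemokine receptors, 3 were tested and called higher in tumoroids, and they passed the filter through the tumoroids alone. They were Cxcr4 with 0 to 2 counts per organoid library and 24, 26 and 35 in tumoroids (log2 4.23 ± 0.52 SE, adjusted p 1.3e-04), Ackr3 with none and 18, 30 and 120, and Ccrl2 with 0 to 9 and 43, 36 and 99 (log2 3.03 ± 0.67 SE, adjusted p 0.0041, and 3.91 without T-cM-titled library 3). Cxcr4 and Ackr3 both bind Cxcl12, which had at most 1 count per library. Of 24 TNF receptors, 17 were tested, with 8 (47.1%) called higher and 1 (5.88%) lower. Tnfrsf19 rose from 0.14 to 1.54 CPM in organoids to 52.1, 90.7 and 42.9 CPM (log2 6.98 ± 0.51 SE, adjusted p 6.6e-06) and Eda2r from 2.83 to 6.32 CPM to 32.2, 45.5 and 50.6 CPM (log2 3.15 ± 0.25 SE, adjusted p 1.0e-05). Of the receptors of Tnf, Tnfrsf1b was called higher (log2 1.53 ± 0.27 SE, adjusted p 0.0011), and Tnfrsf1a was lower by adjusted p but not by the fold threshold (log2 -0.76 ± 0.12 SE, adjusted p 6.9e-04). Fas was the TNF receptor called lower (log2 -1.09 ± 0.23 SE, adjusted p 0.0029). Tnfrsf12a had log2 1.05 ± 0.13 SE, adjusted p 1.1e-04 in tumoroids and, by adjusted p alone, log2 0.44 ± 0.09 SE, adjusted p 0.0017 between organoid groups (adjusted p 0.36 without pair 2). Tnfrsf10b, the receptor of Tnfsf10, also passed the adjusted p alone between organoid groups (log2 0.43 ± 0.11 SE, adjusted p 0.0098), but not without pair 2 or pair 3 (0.47 and 0.24), nor by limma voom or DESeq2.

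**Figure D5:**
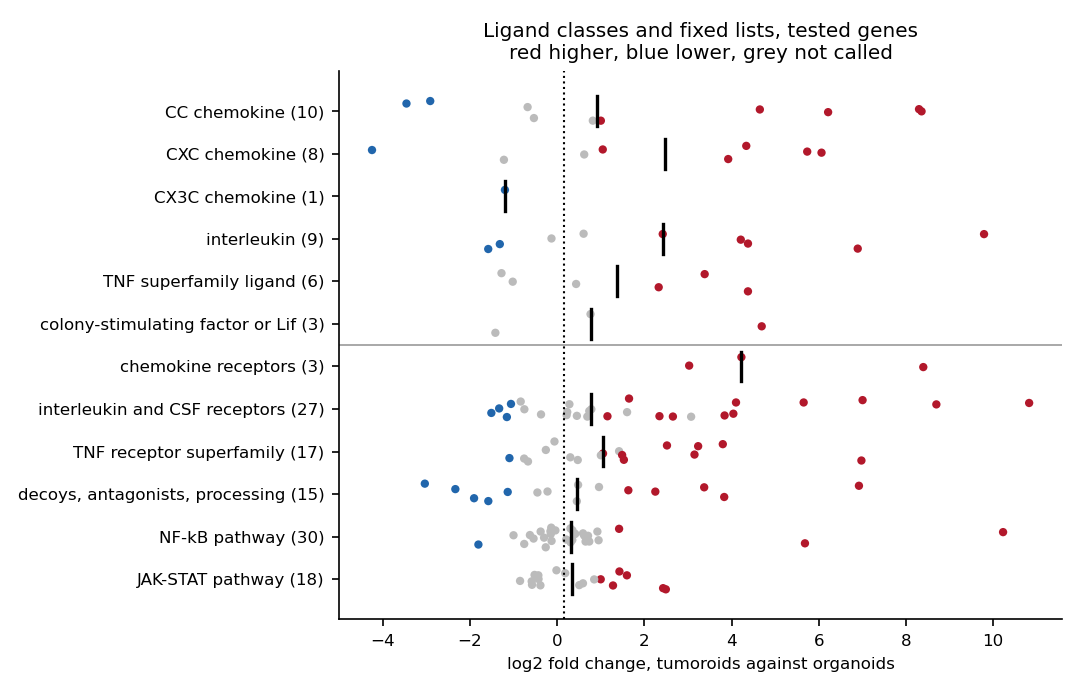
Log2 fold change, tumoroids against organoids (horizontal axis), of each tested gene by ligand class (upper rows) and pathway list (lower rows), with the number tested in brackets, black bars for medians and a dotted line for the median of all genes tested (0.16). Medians ran from -1.20 for the lone CX3C chemokine to 4.23 for the 3 chemokine receptors, and those of the NF-kB and JAK-STAT lists (0.31 and 0.35) lay nearest to the dotted line.

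Of 19 decoys, antagonists and processing genes, 15 were tested, and 5 (33.3%) were called higher and 5 (33.3%) lower in tumoroids. The higher ones included antagonists. Il1rn, the interleukin-1 receptor antagonist, rose from 12.3 to 24.2 CPM in organoids to 158, 209 and 189 CPM (log2 3.37 ± 0.22 SE, adjusted p 3.9e-06). Tnfrsf11b, the decoy osteoprotegerin, rose from 0.34 to 2.13 CPM to 77.1, 66.6 and 264 CPM (log2 6.92 ± 0.52 SE, adjusted p 7.5e-06, and 5.99 without tumoroid library 3), and Tnfrsf22, a decoy for Tnfsf10, was also higher (log2 3.83 ± 0.37 SE, adjusted p 3.2e-05, and 3.18 without tumoroid library 3). The 5 lower genes are known for the processing or capture of Il18, namely the inflammasome genes Nlrp6 (348, 427 and 378, 336, 417 and 405 and 56.5, 50.2 and 34.4 CPM; log2 -3.03 ± 0.20 SE, adjusted p 4.3e-06), Casp1 (log2 -1.58 ± 0.15 SE, adjusted p 2.4e-05), Pycard (log2 -2.33 ± 0.23 SE, adjusted p 3.8e-05) and Nlrc4, and the soluble inhibitor Il18bp. Gsdmd, the pore through which interleukin-1 family cytokines leave the cell, was higher in tumoroids (log2 1.63 ± 0.31 SE, adjusted p 0.0016) and, by adjusted p alone, in T-cM-titled organoids (log2 0.35 ± 0.09 SE, adjusted p 0.0091, adjusted p 0.061 without pair 1 and 0.54 without pair 2).

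Of 31 genes of the NF-kB pathway, 30 were tested, and 3 (10%) were called higher and 1 (3.33%) lower in tumoroids, both shares being below those over all genes. Icam1, an adhesion molecule and target of the pathway, rose from 0.27 to 0.64 CPM in organoids to 24.9, 14.8 and 28.7 CPM (log2 5.68 ± 0.30 SE, adjusted p 1.4e-06). The kinase Chuk was the lower one (log2 -1.80 ± 0.13 SE, adjusted p 6.6e-06), and the subunits Rela and Nfkb2 had adjusted p under 0.05 but log2 fold changes of 0.95 and 0.92, under the fold threshold. Between organoid groups the inhibitor Nfkbia (log2 0.53 ± 0.09 SE, adjusted p 2.7e-04), the subunit Rel (log2 0.36 ± 0.11 SE, adjusted p 0.042) and the kinase Map3k14 (log2 0.47 ± 0.14 SE, adjusted p 0.03) passed the adjusted p alone, and none did without pair 2 (adjusted p 0.34, 0.44 and 0.61). Rel and Map3k14 did not pass without pair 3 either (0.34 and 0.11). Of 19 genes of the JAK-STAT pathway, 18 were tested, with none called lower by edgeR, DESeq2 or limma on TPM (6 lower at an unadjusted p under 0.05 in edgeR) and 6 called higher in tumoroids, namely Jak3 (log2 2.49 ± 0.23 SE, adjusted p 2.1e-05), Stat5a (log2 1.43 ± 0.21 SE, adjusted p 3.5e-04), Socs1 (log2 2.43 ± 0.40 SE, adjusted p 7.0e-04), Cish, Pim1 and Socs3. Between organoid groups, Socs2 (log2 0.61 ± 0.10 SE, adjusted p 1.9e-04) and Pim1 (log2 0.42 ± 0.10 SE, adjusted p 0.0041) were higher and Jak3 (log2 -0.68 ± 0.17 SE, adjusted p 0.0097) and Stat5b (log2 -0.49 ± 0.12 SE, adjusted p 0.0055) lower by adjusted p alone, and none of these 4 passed without pair 2, nor Jak3 without pair 3.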

How the data were processed

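RNA-sequencing libraries of poly(A) RNA (stranded kit, paired-end reads) were aligned by the authors to mm10 with STAR v2.5.3a and counted on the Gencode vM13 annotation. The counting tool, its strand setting and the gene lengths behind TPM are not given in the sources used here. The values used were the raw counts per gene that the authors deposited without normalisation, and the TPM that the authors deposited, scaled by gene length and library.

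Counts were fitted in R 4.3.3 with edgeR 4.0.16 (TMM factors, quasi-likelihood F test in its legacy form, Benjamini-Hochberg adjustment over 16208 genes with TPM of at least 1 in at least 1 of the 9 libraries). For the organoid groups the model held the group and, as the study did, the replicate as a block over 6 libraries. Tumoroids were compared with the mean of both organoid groups over 9 libraries without a block. Same-numbered organoid libraries deviated together over genes (correlations of deviations from group means of 0.546, 0.338 and 0.547), so the titles' numbers were taken to pair them. Tumoroid numbers did not pair with organoids (-0.0705 to 0.196). Whether same-numbered organoids came from 1 mouse is not given in the labels.

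A call required an adjusted p below 0.05 with a fold change beyond 1 on the log2 scale in either direction. SE is the log2 fold change divided by the root of F. Alternatives were limma 3.58.1 (voom, or log2 of TPM plus 1), DESeq2 1.42.0, the newer edgeR form, upper-quartile factors, other filters, the block left out or added, each library left out, single organoid groups and the treatment field's labels. Values are given for ligands with an adjusted p under 0.05 in either comparison, the 10 with the highest mean TPM, up to 5 genes per list with the smallest p, and receptors of ligands described. Cell type markers, and other list genes named beside these, were chosen after their values were seen. The ligands and lists were chosen with earlier results of these data known. Gene positions come from Gencode and promoters from RefSeq (GRCm38.p6). Fits were tested on simulated counts. The authors' sequencing depth was not used, and 1 interleukin left out by the naming rule and 1 of the immune cell markers are not reported here. Figures were drawn with matplotlib 3.10.9.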

Additional observations from a re-analysis of the deposited data

How the results depend on the processing

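For the organoid groups, where 2 ligands were called higher and none lower by edgeR, limma voom and DESeq2 called 1 higher each, limma on TPM called 0, the fit with no replicate block called 0, and leaving out 1 replicate pair gave 0 to 2 higher and 0 to 2 lower. Adjusted p alone gave 3 higher and 3 lower, and the treatment field's labels gave 0 higher and 2 lower. At an unadjusted p under 0.05 edgeR gave 4 higher and 4 lower, and limma on TPM 4 and 5. Over all genes the fit with no replicate block called 0, and limma on TPM 0. Without pair 1 the fit called 169 higher and 216 lower, and without pair 2 it called 1 and 0. Alternatives for the pathway lists were added after seeing the data. Of the list genes, 2 were called higher and 0 lower between organoid groups, against 0 higher with DESeq2 (which gave Il18rap, 1 of the 2, no adjusted p), with limma on TPM and with no replicate block, and 0 to 2 higher and 0 to 1 lower without 1 pair. Of the list genes past the adjusted p alone, Jak3, Map3k14, Rel and Tnfrsf10b missed it by limma voom and DESeq2, Gsdmd by limma voom and Stat5b by DESeq2. Map3k14 and Rel missed it in 8 of 11 alternatives, among them the newer edgeR form, and also with filterByExpr (Map3k14) or upper-quartile factors (Rel).

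For tumoroids, 19 higher and 6 lower became 10 and 7 with filterByExpr, which tests fewer low-count genes, 16 and 3 with limma on TPM, 14 and 8 with DESeq2, and 18 and 7 with the replicate block. Leaving out 1 library gave 15 to 18 higher and 5 to 8 lower. The list genes, 45 higher and 12 lower, gave 48 and 4 with limma on TPM. Of 25 called ligands, 15 kept their direction and an adjusted p under 0.05 in each alternative that tested them (filterByExpr left out Ccl7, Cxcl2, Cxcl5 and Il1a of these 15), and 10 lost the adjusted p in some. No ligand named with a call turned in direction, except that every organoid direction turns round under the treatment field's labels. On TPM the split over all genes moved from 3400 higher and 1963 lower to 4174 and 1143, with a median log2 fold change of 0.52. Upper-quartile factors moved that median from 0.16 to 0.27. Ccl5 and Lta missed the adjusted p by limma voom and against either organoid group alone. The causes were not tested. With 3 libraries per group, and 0 to 5 organoid counts for many ligands, the larger fitted fold changes move with the tool and with single libraries.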

Other observations

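Cytokine ligands that the naming rule did not take in, among them the IL-36 group of the interleukin-1 family and relatives of interleukin-6, were counted as a list of 26 genes written with earlier results of these data known. Of these, 13 were tested, 9 (69.2%) were called higher and 1 (7.69%) lower in tumoroids by edgeR, where 21% and 12.1% of all genes were, and the median log2 fold change was 3.63, against 0.16 over all genes tested. A gene with low levels could pass the filter on low values only through the group where it was high, so these counts and this median test nothing. The IL-36 antagonist gene Il1f5 had no count in any organoid library and 8, 46 and 158 counts in tumoroid libraries 1 to 3 (adjusted p 0.0032), with a fitted log2 fold change of 8.71, or 7.37 without tumoroid library 3, that depends on the prior count. The IL-36 agonist genes Il1f6, Il1f8 and Il1f9 had 1, 1 and 2 counts over the organoid libraries and, in tumoroids, 3, 4 and 30 counts, 1, 0 and 44 counts, and 4, 2 and 181 counts. Most reads of all 4 genes thus lay in tumoroid library 3, and so did those of Tslp, an epithelial cytokine that acts on dendritic cells, with 3, 0 and 76 counts in tumoroids and 1 over the organoid libraries. Il1rl2, the receptor gene for IL-36, had no count in organoids and 2, 0 and 0 counts in tumoroids. The lower gene was Cntf, with 33 counts over the organoid libraries and 4 over the tumoroids (adjusted p 0.045).

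Clcf1, a cytokine that acts through the receptor of ciliary neurotrophic factor, was the gene of this list called between organoid groups. It measured 2.38, 3.60 and 2.14 CPM in T-cM-titled and 0.989, 1.398 and 1.15 CPM in WT-cM-titled libraries 1 to 3, without overlap (log2 fold change 1.18 ± 0.27 SE, edgeR's adjusted p 0.0036), and its adjusted p was 0.40 without pair 2 and 0.087 by DESeq2. Tumoroids were higher than all organoids, at 10.7, 25.8 and 29.99 CPM (log2 fold change 3.63 ± 0.32 SE, adjusted p 1.9e-05).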
